A study of Homo sapiens with 32 samples.

Results

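Binding of HNF4α was examined at 10 genes of bile acid signalling and transport: the receptor gene NR1H4, its target NR0B2, the hormone gene FGF19, the synthesis gene CYP7A1 and the transporter genes SLC10A2, SLC51A, SLC51B, ABCB11, ABCC2 and ABCC3. They are 10 of 20037 protein-coding genes in the RefSeq annotation of GRCh38.p14. A peak was assigned to a gene when its summit, the point of strongest signal, lay within 50 kb of the gene's span. This gave 438 of the 337294 peaks in 18 peak lists, each list made by the authors from 1 library. The rule that assigns peaks to these genes uses no measured value.

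The study mapped HNF4α by chromatin immunoprecipitation and sequencing (ChIP-seq) in 3 human pancreatic ductal adenocarcinoma cell lines after changing which HNF4α isoforms were made. HNF4A has a pair of promoters, P1 and P2, whose transcripts code for isoforms with different N-terminal ends. Panc10.05 cells carried doxycycline-induced P1-α2 (25 ng/mL doxycycline) or P2-α8 (12.5 ng/mL), so isoform and dose differed together there. BxPC3 cells carried the same isoforms and received 500 ng/mL for each. The title of the BxPC3 P2-α8 libraries pairs α8 with P1, and their genotype label, P2-α8, was used. In ASPC1 cells, CRISPR interference (CRISPRi) was directed at P1 by the guide sgP1 or at P2 by sgP2, and sgNC was the control guide. These 7 groups were precipitated with an antibody against all HNF4α isoforms (the pan antibody). The ASPC1 sgNC and sgP2 cells were also precipitated with an antibody against P1 isoforms (the P1 antibody). Each of the 9 groups had 2 libraries. No label says that they came from separate cultures, so p-values measure only the spread between these libraries. The peak lists carry no measure of HNF4A transcript or protein, and the level of each isoform was not checked.

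Bile acids are made from cholesterol in hepatocytes, where CYP7A1 is the rate-limiting enzyme of the classical route. They are taken up again in the ileum by SLC10A2, pass the basolateral membrane through the SLC51A and SLC51B heterodimer, and return to the liver. They bind the nuclear receptor FXR, encoded by NR1H4, which induces NR0B2 (the repressor SHP) and, in the ileum, FGF19, and both lower CYP7A1 expression. ABCB11 exports bile salts into bile, ABCC2 exports conjugates across the apical membrane, and ABCC3 exports them across the basolateral membrane. HNF4α is known as a regulator of many of these genes in liver and gut. Pancreatic ductal cells are not a site of bile acid synthesis.

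RefSeq promoter windows, 250 bases before to 50 bases after a gene's start in GRCh38.p14, were matched for 6 of the 10 genes: NR1H4, SLC51A, SLC51B, ABCB11, ABCC2 and SLC10A2. The 3 shown here are those that a peak overlapped, each 5′ to 3′ on the plus strand, on which all 3 genes lie. Capitals mark CAAAG, the core that HNF4α motifs share, or its reverse complement CTTTG.
ABCC2 promoter, chr10:99782390-99782689: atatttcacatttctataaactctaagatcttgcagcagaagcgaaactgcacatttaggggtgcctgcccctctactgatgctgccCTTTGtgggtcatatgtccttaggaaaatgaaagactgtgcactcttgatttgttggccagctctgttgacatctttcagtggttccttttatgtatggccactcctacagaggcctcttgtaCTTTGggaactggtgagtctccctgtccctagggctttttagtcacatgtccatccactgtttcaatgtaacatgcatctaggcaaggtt
SLC51A promoter, chr3:196216284-196216583: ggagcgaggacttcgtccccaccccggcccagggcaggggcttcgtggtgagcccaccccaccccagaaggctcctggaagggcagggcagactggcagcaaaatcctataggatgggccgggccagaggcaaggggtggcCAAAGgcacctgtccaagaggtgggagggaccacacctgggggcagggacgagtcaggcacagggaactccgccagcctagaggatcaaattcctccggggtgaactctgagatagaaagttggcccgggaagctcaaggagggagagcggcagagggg
SLC51B promoter, chr15:65045137-65045436: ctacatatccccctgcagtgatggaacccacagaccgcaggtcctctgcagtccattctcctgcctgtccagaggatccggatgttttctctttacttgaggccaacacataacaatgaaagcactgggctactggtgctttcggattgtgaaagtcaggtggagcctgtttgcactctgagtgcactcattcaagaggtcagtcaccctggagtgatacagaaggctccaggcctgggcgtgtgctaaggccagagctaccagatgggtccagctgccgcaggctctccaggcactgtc

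The ABCC2 window held the summit of a peak in 8 lists, and a peak overlapped it in 9. It held 2 CAAAG matches, both on the opposite strand, at positions 88 to 92 and 211 to 215 counted from 1 at its 5′ end. The SLC51A window held 1 match, at positions 142 to 146, and a summit in 1 list. No match was found in the SLC51B window, which peaks in 3 lists overlapped without a summit inside it. CAAAG occurs in 47.5% of 35116 promoter windows of this length, so a match is common. The longer motifs CAAAGTCCA and CAAAGTTCA, the DR1 consensus and a looser form of it with free bases beside the core, searched on both strands, had 0 matches in the 6 windows. They occur in 0.384%, 0.296%, 0.0114% and 1.42% of all windows, and each of them contains CAAAG.

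The 18 lists differed widely in length, from 260 to 41808 peaks, and read depth is unknown. Thresholds differed too: no peak of the induced lines had a −log10 q-value below 8, while ASPC1 lists reached down to just over 2. Fold enrichment, a linear ratio, and q-values are the authors' own and are used only to describe, rank or filter peaks. Fold depends on the depth and background of its list, so the order of values between lists describes these lists and is no measure of a change in binding. The labels give each cell line its own set of library numbers, so line and library set cannot be told apart.

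Among the lists of the induced lines, the number of peaks at the 10 genes broadly followed the length of the list. Panc10.05 held 29 and 35 such peaks with P1-α2 and 50 and 37 with P2-α8. BxPC3 held 46 and 39 with P1-α2 but 11 and 15 with P2-α8. The ASPC1 lists of the pan antibody held 33 and 24 in sgNC, 25 and 23 in sgP1, and 25 and 29 in sgP2. The P1 antibody gave 11 and 6 in sgP2 cells and 0 in both sgNC lists, which had 697 and 260 peaks in all. The 2 shortest pan lists of the induced lines, both BxPC3 P2-α8, were also the 2 with the fewest peaks at these genes. ASPC1 pan lists held more for their length: sgP1 replicate 2, shorter still with 11686 peaks in all, held 23.

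**Figure D1:**
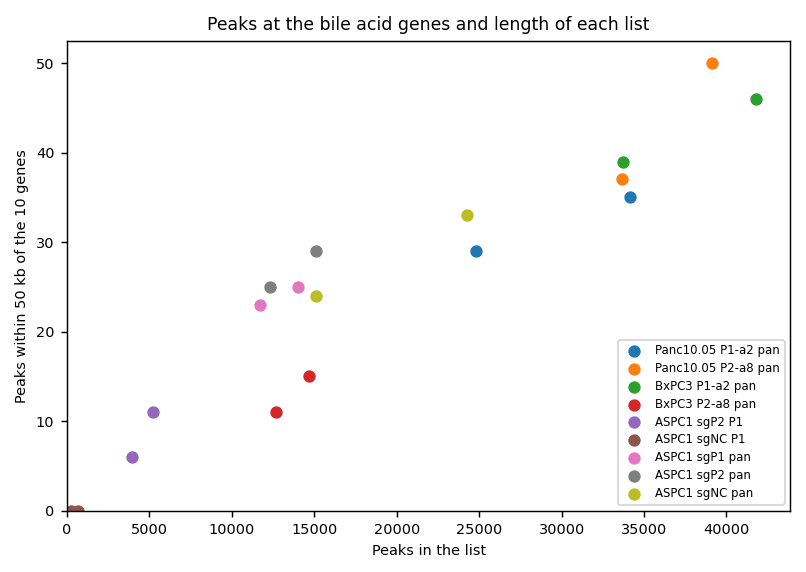
Number of peaks with a summit within 50 kb of the 10 genes (vertical axis) against the number of peaks in the whole list (horizontal axis), 1 point per list and 1 colour per group. Longer lists tended to hold more such peaks, from 0 in the sgNC lists of the P1 antibody to 50 in the longest Panc10.05 list, with 39111 peaks. ASPC1 pan lists held more for their length than lists of the induced lines. No such count for other genes is set beside it.

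As a share of the list, the 6 ASPC1 pan lists had more of their peaks at the 10 genes than the 8 induced lists. The share was 0.136% to 0.203% in ASPC1 and 0.0867% to 0.128% in Panc10.05 and BxPC3, with no overlap. With a −log10 q-value of at least 8 in every list it was 0.147% to 0.230% in ASPC1. When all 14 lists were cut to the 11686 peaks of highest fold, ASPC1 lists kept 20 to 23 peaks at these genes, Panc10.05 lists 12 to 14, and BxPC3 lists 9 or 10. The ranges of the 3 lines did not overlap. This pattern was noticed in the data and then described, so it has no test, and cell line, induction, doxycycline dose and library set cannot be told apart. The same share is not given for other genes, so the pattern is not shown to be particular to these 10. Over all protein-coding genes, 50.6% had a peak in both sgP1 lists and 45.4% in both BxPC3 P2-α8 lists, which were of similar length. A summit lay in 1.37% and 0.484% of all promoter windows in both lists of those groups.

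Peaks were spread unevenly over the genes. ABCC3 had the most peaks, 116 over the 18 lists at 18 sites, a site being peaks of different lists merged by overlap. NR0B2 and ABCB11 had 63 each at 14 and 12 sites, SLC51B 58 at 10, and ABCC2 52 at 8. SLC51A had 28 at 7 sites, FGF19 25 at 6 and NR1H4 18 at 3. SLC10A2 had 12 peaks at 2 sites and CYP7A1 3 peaks at 2. The genes of ileal uptake and of synthesis were thus at the bottom of the order, although windows differ in length and in how many other genes they hold.

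**Figure D2:**
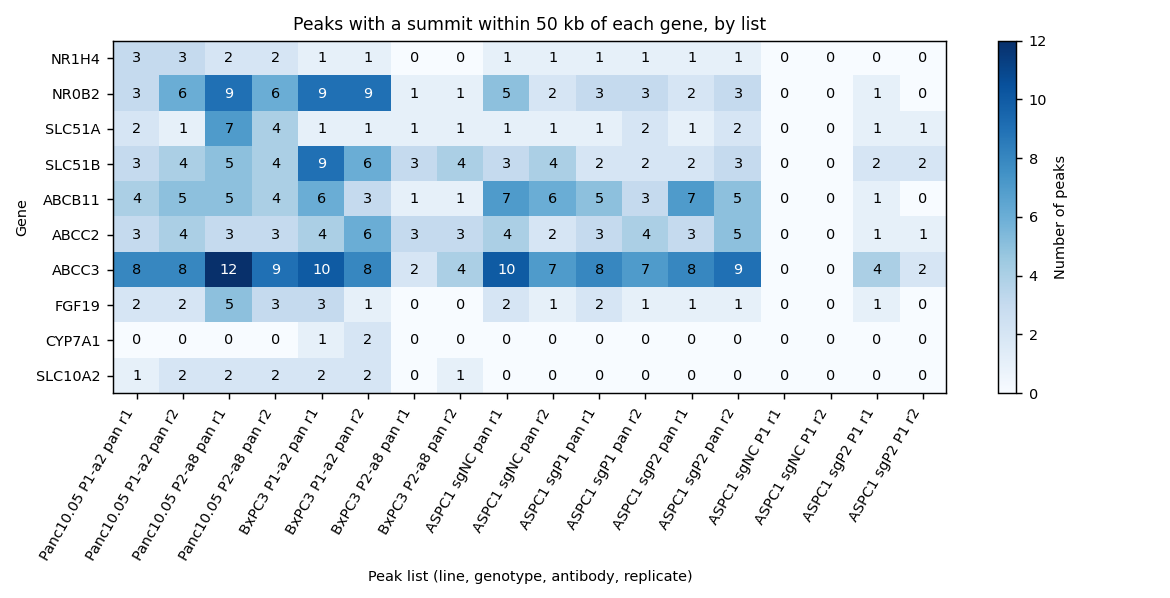
Number of peaks within 50 kb of each of the 10 genes (rows) in each of the 18 lists (columns), with the number printed and shaded in each cell. ABCC3 had 2 to 12 peaks in each of the 14 pan lists, while CYP7A1 had a peak in 2 lists only and the sgNC lists of the P1 antibody had 0 throughout.

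Of the 82 sites, 58 were found in both lists of at least 1 group and 20 in 1 list only. Only 17 lay inside the span of the bile acid gene, and 65 lay outside it, 27 of them inside another protein-coding gene. For 34 sites the bile acid gene was the nearest protein-coding gene. Just 6 sites lay within 1 kb of an end of the span. Distance alone does not say which gene a site acts on, so the nearest gene is given with each site described here.

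**Figure D3:**
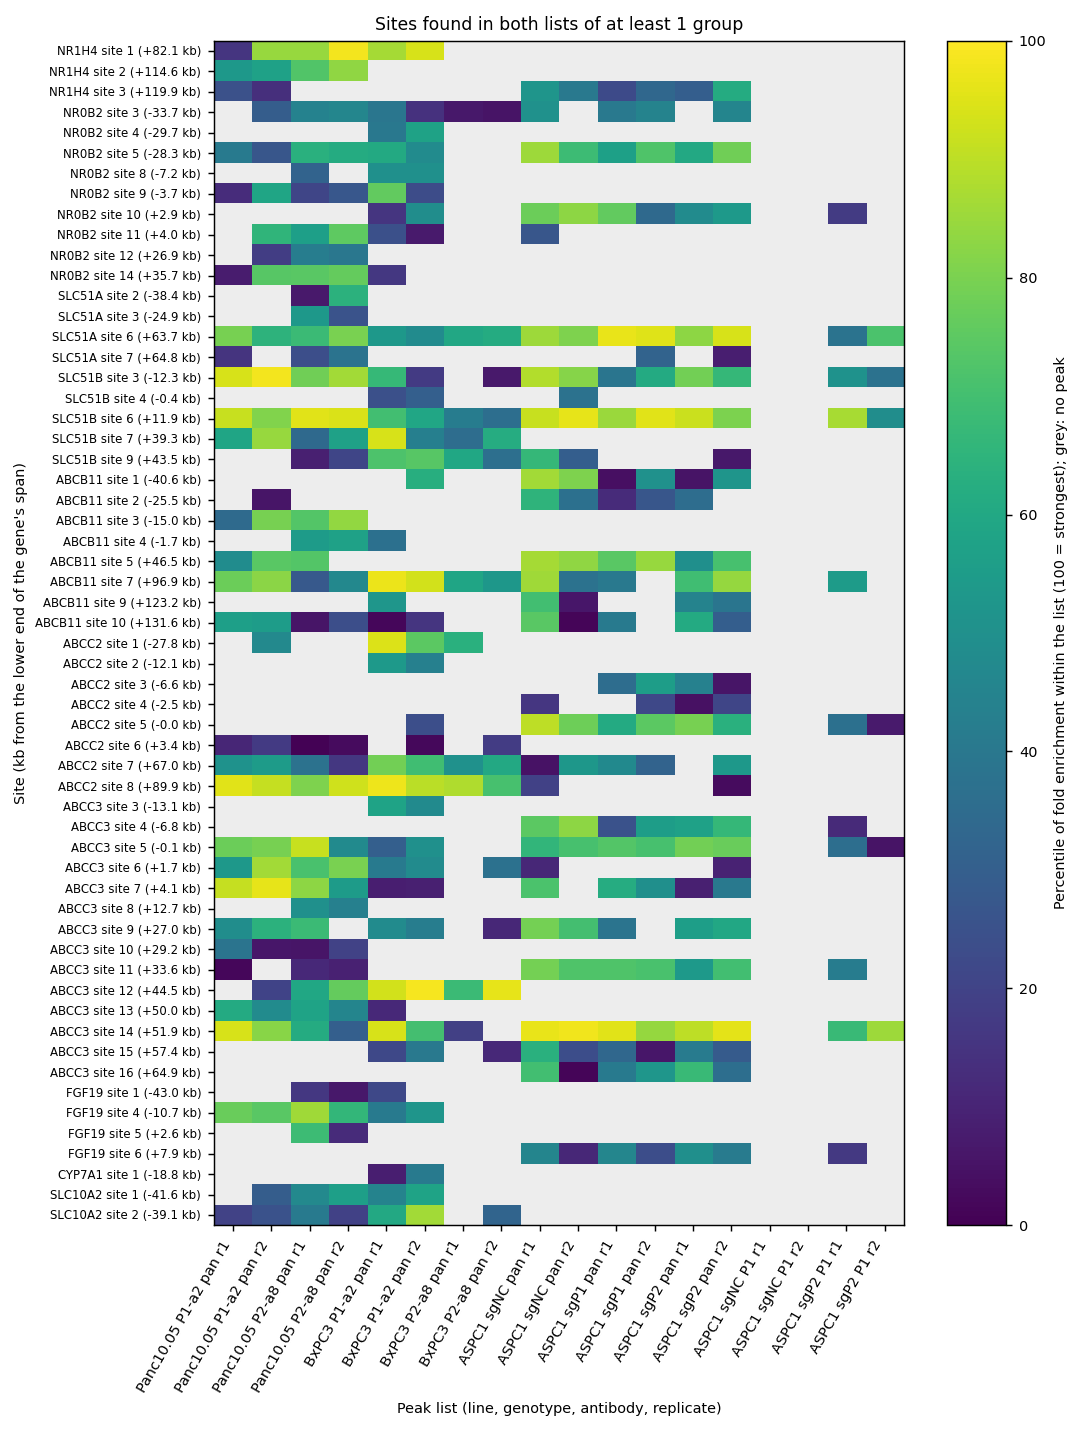
Each row is 1 of the 58 sites found in both lists of at least 1 group, with its distance in kb from the lower end of the gene's span, and each column is a list. Colour gives the percentile of the peak's fold enrichment within its list (100 strongest) and grey means no peak; SLC51A site 6 and SLC51B site 6 are filled in all 14 pan lists, and both sgNC lists of the P1 antibody are empty.

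NR1H4, the gene of the bile acid receptor FXR, had a site in the 4 Panc10.05 lists, the BxPC3 P1-α2 lists and all ASPC1 pan lists, but at different places. Site 1 (chromosome 12, 100555647 to 100556301) lay inside NR1H4, 8.43 kb from the high end of its span. Its fold enrichment was 8.88 and 29.1 in Panc10.05 P1-α2, 21.1 and 36.1 in P2-α8, and 20.2 and 21.2 in BxPC3 P1-α2. No BxPC3 P2-α8 or ASPC1 list had it. Site 3 (100593466 to 100594008), inside the neighbour GAS2L3 and 29.4 kb past NR1H4, was found in the 6 ASPC1 pan lists, with fold 4.93 to 8.18. Outside ASPC1 it was found only in Panc10.05 P1-α2, at 10.09 and 8.97. Site 2 (100588191 to 100588842), also in GAS2L3, was found in all 4 Panc10.05 lists and nowhere else, with fold 13.9 to 19.2. The ASPC1 cells thus had no peak within the NR1H4 gene itself in any list.

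NR0B2 codes for SHP, a receptor-like repressor without a DNA-binding domain, and lies within the span of NUDC on chromosome 1. Its window also takes in SFN, GPN2, GPATCH3 and KDF1, so a site there has several candidate genes. The nearest site found in both lists of a group was site 10 (26913954 to 26914902), 0.447 kb past the high end of the NR0B2 span. Its fold was 11.8 and 12.9 in sgNC, 10.7 and 5.62 in sgP1, and 6.9 and 7.16 in sgP2. BxPC3 P1-α2 had it at 7.79 and 10.0, and 1 sgP2 list of the P1 antibody at 4.74. It was in no Panc10.05 list, where site 11 (26915169 to 26915715), 1.5 kb from the gene, had 18.6 in 1 P1-α2 list and 13.2 and 16.3 in P2-α8. The most widespread site was site 5 (26882499 to 26883630), inside GPN2 and 28.3 kb from NR0B2, in 12 of the 14 pan lists. Only the BxPC3 P2-α8 lists lacked it. Its fold ranged from 7.5 in an sgP1 list to 15.4 in an sgNC list. Site 3 (26877358 to 26878160), also inside GPN2 and 33.7 kb from NR0B2, was in 11 pan lists. It was the only NR0B2 site in BxPC3 P2-α8, at fold 6.29 and 5.36. There it ranked low, at percentiles of 6.53 and 5.17 by fold within its lists.

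FGF19 codes for the hormone that the ileum sends to the liver. Its sites found in both lists of a group were not the same ones in the induced lines and in ASPC1. Site 4 (chromosome 11, 69687076 to 69688325), 10.7 kb from FGF19 as the nearest gene, had fold 21 and 22.4 in Panc10.05 P1-α2 and 21.8 and 14.2 in P2-α8. BxPC3 P1-α2 had 10.4 in each list, and no BxPC3 P2-α8 or ASPC1 list had it. Site 6 (69705780 to 69706366), 2.08 kb past the high end of the span, was in the 6 ASPC1 pan lists and in none of the 8 induced lists. At site 6 the −log10 q-value was 6.42 in sgP1 replicate 2 and 7.98 in sgNC replicate 2. Both are below 8, the floor of the induced lists, so the thresholds were unlike. The fold of site 6 was 6.39 and 4.29 in sgNC, 6.45 and 5.02 in sgP1, and 7.07 and 6.04 in sgP2, and 4.69 in 1 sgP2 list of the P1 antibody. The 3 guides overlapped in these values. Site 5 (69700582 to 69701119), inside FGF19, was found in both Panc10.05 P2-α8 lists, at 15.7 and 7.55. Site 1 (69655023 to 69655356), 0.718 kb from CCND1 and 43.0 kb from FGF19, was found in the same lists at 8.47 and 6.78 and in a BxPC3 P1-α2 list at 8.46. Site 3 (69685687 to 69686201), 12.3 kb from FGF19, was found on both sides but in single lists, at 8.54 in Panc10.05 P2-α8, 4.396 in sgP1 and 4.97 in sgNC.

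CYP7A1, on chromosome 8, had a peak in the BxPC3 P1-α2 lists only. Site 1 (58471149 to 58471502), 18.8 kb from CYP7A1 as the nearest gene, had fold 6.87 and 9.28. Site 2, 43.2 kb away and nearer to SDCBP, had 11.6 in 1 of these lists. No Panc10.05 or ASPC1 list had a peak within 50 kb of CYP7A1.

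SLC10A2, the ileal uptake transporter on chromosome 13, had sites in the induced lines only. It is the nearest gene to both, and no other protein-coding gene lies in its window. Site 2 (103004579 to 103005262), 39.1 kb away, was in 7 of the 8 induced lists. Its fold was 9.44 and 10.7 in Panc10.05 P1-α2 and 11.2 and 8.3 in P2-α8. BxPC3 P1-α2 had 12.9 and 16.7, above the 7.48 of the only P2-α8 list that held it. Site 1 (103002226 to 103002634), 41.6 kb away, was in 5 lists, with fold 10.9 to 12.3.

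The genes of the basolateral exporter carried the 2 sites found in every pan list. SLC51B site 6 (chromosome 15, 65056864 to 65057969) lay inside RASL12, a gene that overlaps SLC51B, 3.93 kb past its high end. Its fold was 32 and 26.3 in Panc10.05 P1-α2, 31.7 and 27.5 in P2-α8, 14.7 and 11.2 in BxPC3 P1-α2, and 9.41 and 7.74 in BxPC3 P2-α8. The ASPC1 pan lists gave 21 and 24.0 in sgNC, 14 and 22.1 in sgP1, and 19.1 and 12.4 in sgP2, and the P1 antibody 13.1 and 7.41 in sgP2. BxPC3 P2-α8 lists were the lowest of the pan lists, and summits of the 16 peaks fell within 98 bp. SLC51A site 6 (chromosome 3, 196279505 to 196280647) lay inside PCYT1A, the gene of a phosphatidylcholine synthesis enzyme, 46.8 kb past SLC51A. Its fold was 9.4 to 22.0 in the induced lists, 12.1 to 25.4 in the ASPC1 pan lists, and 6.1 and 9.93 with the P1 antibody in sgP2. It is near the edge of the window and nearest to PCYT1A. With a −log10 q-value of at least 8, these were the 2 of 78 regions at the 10 genes found in all 14 pan lists (2.56%), against 2.81% of all regions.

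SLC51B site 3 (65032762 to 65033601), 12.3 kb before SLC51B and 3.45 kb from MTFMT, was the site with the highest fold of the 10 genes. It reached 36.9 and 66.3 in Panc10.05 P1-α2, against 18.5 and 20.4 in P2-α8. The BxPC3 values were 14.1 and 7.26 with P1-α2 and 5.6 in 1 P2-α8 list. In ASPC1 it was 17.7 and 12.5 in sgNC, 6.0 and 7.92 in sgP1, and 11.8 and 8.88 in sgP2. Both sgNC values were above all 4 values of the targeting guides, as in 19.2% of all regions found in all 6 lists. Nearer SLC51A itself, site 5 (196216331 to 196216851), at the gene's start, had fold 11.4 in 1 Panc10.05 P2-α8 list and was in no other list. SLC51A site 7 (196281046 to 196281644), inside PCYT1A and 47.9 kb past SLC51A, was in 5 pan lists. Its fold was 8.87 in 1 Panc10.05 P1-α2 list, 9.31 and 10.2 in P2-α8, 5.45 in 1 sgP1 list and 3.86 in 1 sgP2 list. Site 4 of SLC51B (65043946 to 65045407), 0.411 kb before the span, was in both BxPC3 P1-α2 lists at 8.78 and 8.36 and in an sgNC list at 5.85.

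ABCB11, the bile salt export pump on chromosome 2, had 7 and 6 peaks in sgNC, 5 and 3 in sgP1, and 7 and 5 in sgP2, and 1 to 6 in the induced lists. Site 7 (169011966 to 169012878), inside the gene, was in 13 of 14 pan lists. In both induced lines its fold was higher with P1-α2 than with P2-α8: 21.1 and 27.7 against 9.72 and 11.1 in Panc10.05, and 32.3 and 20.4 against 10.8 and 8.73 in BxPC3. The isoforms did not overlap in either line. This order was common: 36.7% of all regions found in all 4 Panc10.05 lists had it, and 67.2% of those in all 4 BxPC3 lists. The ASPC1 lists had 15.6 and 5.86 in sgNC, 6.07 in 1 sgP1 list, and 9.65 and 13.9 in sgP2. Site 5 (168961597 to 168962129), also inside ABCB11, was in all 6 ASPC1 pan lists, at 16.2 and 13.0 in sgNC, 10.2 and 13.1 in sgP1, and 7.07 and 9.73 in sgP2. Panc10.05 had it too, at 13.1 and 22.4 with P1-α2 and 17.0 in 1 P2-α8 list, and no BxPC3 list had it. Site 1 (168874293 to 168875207), 40.6 kb away inside SPC25, had 15.9 and 12.1 in sgNC and 3.75 to 6.96 in the 4 lists of the targeting guides. Those groups did not overlap in fold, and 19.2% of all regions found in all 6 lists had the same order. Outside ASPC1, site 1 was found in 1 BxPC3 P1-α2 list, at 11.6.

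ABCC2, the apical conjugate exporter MRP2 on chromosome 10, had a site at its start in ASPC1 that the induced lines mostly lacked. Site 5 (99782342 to 99783115) covers the ABCC2 promoter window printed with the other promoters. Its fold was 19.0 and 11.2 in sgNC, 8.0 and 10.3 in sgP1, and 12.0 and 8.43 in sgP2, and 6.06 and 4.41 with the P1 antibody in sgP2. Of the 8 induced lists only 1, from BxPC3 P1-α2, had it, at 7.89. A summit lay in that window in both lists of all 3 pan groups of ASPC1, as in 2.12% of all windows in sgNC, 1.37% in sgP1 and 1.73% in sgP2. It did so also in both sgP2 lists of the P1 antibody, as in 0.473% of windows.

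The opposite order was seen 20.0 kb past ABCC2. Site 8 (99872139 to 99872952), nearest to DNMBP, had fold 40.7 and 37.5 in Panc10.05 P1-α2, 19.5 and 25.5 in P2-α8, 32.9 and 18.4 in BxPC3 P1-α2, and 15.7 and 10.2 in BxPC3 P2-α8. P1-α2 was above P2-α8 in each line without overlap, as in 36.7% of all shared regions in Panc10.05 and 67.2% in BxPC3. In ASPC1 it had 4.54 in an sgNC list and 3.33 in an sgP2 list and was absent from the other four pan lists. With a −log10 q-value of at least 8 it and SLC51B site 7 were 2 of 78 regions (2.56%) found in all 8 induced lists and no ASPC1 pan list, where the share of all regions was 3.03%. None of the 78 was in all 6 ASPC1 pan lists and no induced list, against 0.826% of all regions. In all 4 Panc10.05 lists and no BxPC3 list were 3 (3.85%, against 5.2%): NR1H4 site 2, ABCC3 site 10 and ABCB11 site 3. The reverse held for 0, against 1.96%. Each of these shares is near or below that of all regions or rests on 3 regions at most.

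ABCC3, the basolateral exporter MRP3 on chromosome 17, had peaks from its start to beyond its end. Site 5 (50634225 to 50635163), 0.123 kb before the span, was in 12 of 14 pan lists and in both sgP2 lists of the P1 antibody. Its fold was 21.1 and 25.5 in Panc10.05 P1-α2, 26.3 and 11.2 in P2-α8, and 9.35 and 10.14 in BxPC3 P1-α2, with no peak in BxPC3 P2-α8. ASPC1 values were 8.97 and 9.6 in sgNC, 10.0 and 9.35 in sgP1, and 11.8 and 11.2 in sgP2, and 5.92 and 4.18 with the P1 antibody. The ASPC1 pan lists differed little here, and both sgP2 lists were at or above the others.

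Site 14 of ABCC3 (50686269 to 50687204), inside the gene and 51.9 kb from its low end, was found in 15 lists and was among the strongest sites in ASPC1. Its fold was 30.7 and 27.5 in sgNC, 23.5 and 13.0 in sgP1, 17.4 and 26.1 in sgP2, and 8.9 and 12.8 with the P1 antibody. Panc10.05 had 36.8 and 27.2 with P1-α2 and 14.1 and 9.44 with P2-α8, and BxPC3 25.9 and 12.7 against 7.65 in 1 list. As at ABCB11 site 7 and ABCC2 site 8, the P1-α2 values lay above those of P2-α8 in both lines. In BxPC3 this rested on 1 P2-α8 list, so site 14 was not in all 4 BxPC3 lists. The order was common: 36.7% of all regions found in all 4 Panc10.05 lists had it, and 67.2% of those in all 4 BxPC3 lists. ABCC3 site 12 (50678930 to 50679707) had that order in BxPC3 only, with 25.3 and 29.6 for P1-α2 against 11.9 and 16.8 for P2-α8. In Panc10.05 it had 13.8 and 16.6 with P2-α8 against 9.95 in 1 P1-α2 list, and it had no peak in ASPC1. Site 16 (50699279 to 50699979), 7.52 kb past the gene inside ANKRD40, was in the 6 ASPC1 pan lists and no other, at fold 3.21 to 9.75. Its −log10 q-value in sgNC replicate 2 was 3.63, below the floor of 8 in the induced lists.

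**Figure D4:**
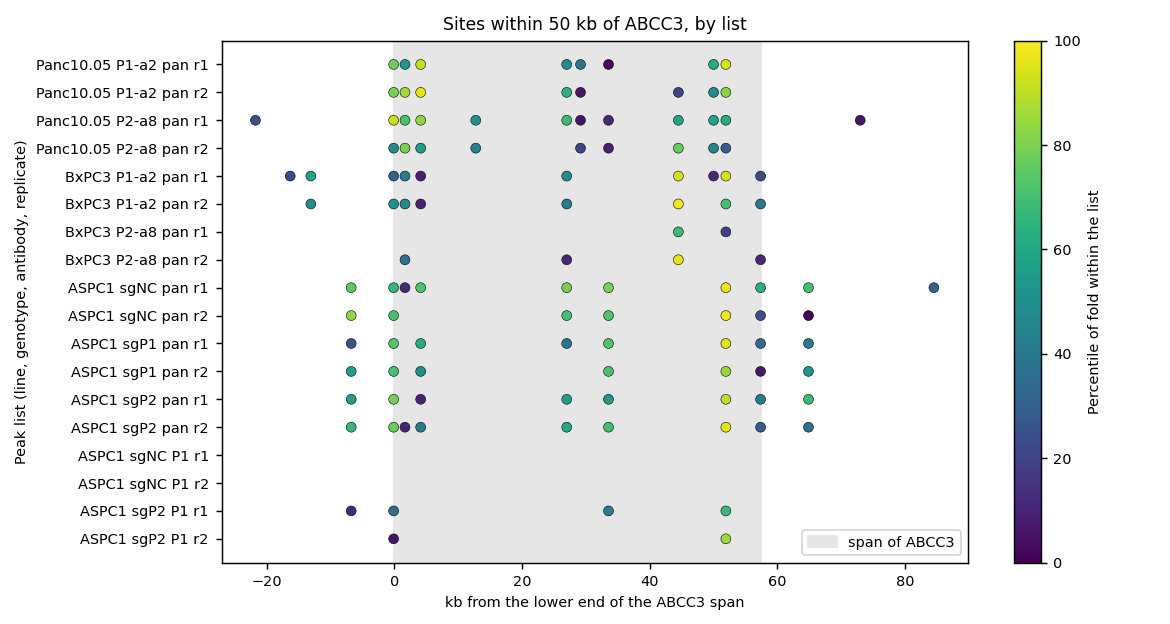
Sites within 50 kb of ABCC3 in each list (rows), placed by distance in kb from the lower end of the gene's span, which is shaded grey; colour gives the percentile of fold within the list. Site 14, at 51.9 kb, is present in 15 lists, and site 16, at 64.9 kb, in the 6 ASPC1 pan lists only.

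The first comparison asked whether the P1 and P2 isoforms occupied these loci differently when induced. In Panc10.05, lists held 32 ± 4.24 peaks at the 10 genes with P1-α2 and 43.5 ± 9.19 with P2-α8 (SD, n = 2 each). The difference of −11.5 had p = 0.333 in a two-sided exact permutation test, and 2 against 2 libraries can give none smaller (adjusted p = 0.490 over 10 comparisons). In BxPC3 the order was opposite, 42.5 ± 4.95 with P1-α2 against 13.0 ± 2.83 with P2-α8 (SD, n = 2 each). That difference, 29.5, had the same exact p of 0.333. Cut by fold to the shortest list of each line, 24828 peaks in Panc10.05 and 12681 in BxPC3, the lists differed by −1.5 and 0. With the cut to 11686 peaks used for all 14 pan lists, the Panc10.05 order turned: 14 in each P1-α2 list and 12 in each P2-α8 list. Over both lines the mean difference was 9.0 (exact permutation p = 0.333, smallest possible 0.0556), and 1.25 with all 8 lists cut to 12681 peaks.

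The isoform difference in Panc10.05 minus that in BxPC3 was −41.0 (exact permutation p = 0.0556, the lowest value possible here, adjusted p = 0.490). Both Panc10.05 P2-α8 lists held more than both P1-α2 lists, and both BxPC3 P1-α2 lists more than both P2-α8 lists. With all 8 lists cut to 12681 peaks this difference was 2.5, of opposite sign. Panc10.05 lists held 10.0 more peaks at these genes than BxPC3 lists on average (exact permutation p = 0.343), and 4.25 more at equal length. There all 4 Panc10.05 lists were above all 4 BxPC3 lists, with an exact permutation p of 0.0286, the smallest possible (adjusted p = 0.286).

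At the level of genes, 9 of the 10 had a peak in both lists of Panc10.05 P1-α2, where 74.5% of all protein-coding genes did, and the same 9 with P2-α8 (79.5%). CYP7A1 was the missing gene in each. All 10 had one in BxPC3 P1-α2 (76.6%) and 6 in BxPC3 P2-α8 (45.4%). NR0B2 counted among these 6 only through site 3, a weak peak inside GPN2, 33.7 kb from NR0B2. NR1H4, FGF19 and CYP7A1 had a peak in both P1-α2 lists and in neither P2-α8 list of BxPC3, as did 16.5% of all genes. The reverse held for 0 of the 10 (against 0.00998%). In Panc10.05 no gene of the 10 had a peak in both lists of one isoform and in neither of the other, against 0.928% of all genes for P1-α2 and 2.59% for P2-α8.

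Sites specific to an isoform, present in both its lists and in neither list of the other, followed the longer lists. Panc10.05 had 1 specific to P1-α2 among 54 regions (1.85%, against 3.64% of all regions) and 7 specific to P2-α8 (13.0%, against 10.9%). The first was NR1H4 site 3, and the others were FGF19 sites 1 and 5, SLC51A sites 2 and 3, SLC51B site 9, ABCC3 site 8 and ABCB11 site 4. Without Panc10.05 P2-α8 replicate 2 the 7 became 17, without P1-α2 replicate 2 they became 12, and at equal length 4. The 1 site of P1-α2 became 4 without P1-α2 replicate 1 and 3 without P2-α8 replicate 1. In all 4 Panc10.05 lists were 23 of the regions (42.6%, against 38%).

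BxPC3 had 16 regions of 52 specific to P1-α2 (30.8%, against 28.2%) and 0 specific to P2-α8 (against 0.129%). NR0B2 gave 6 of the 16 (sites 4, 5, 8, 9, 10 and 11) and ABCC3 gave 3 (sites 3, 5 and 7). The rest were ABCC2 site 2, FGF19 site 4, NR1H4 site 1, SLC10A2 site 1, SLC51B site 4, ABCB11 site 10 and CYP7A1 site 1. NR1H4 site 1 was the strongest of them within its lists, at percentiles of 86.5 and 93.8 by fold, where 100 is the strongest peak. The percentiles of the others averaged 8.43 to 54.5. At equal length the counts were 1 and 1, and without P1-α2 replicate 2 the 16 became 30. In all 4 lists were 9 regions (17.3%, against 18.3%).

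**Figure D5:**
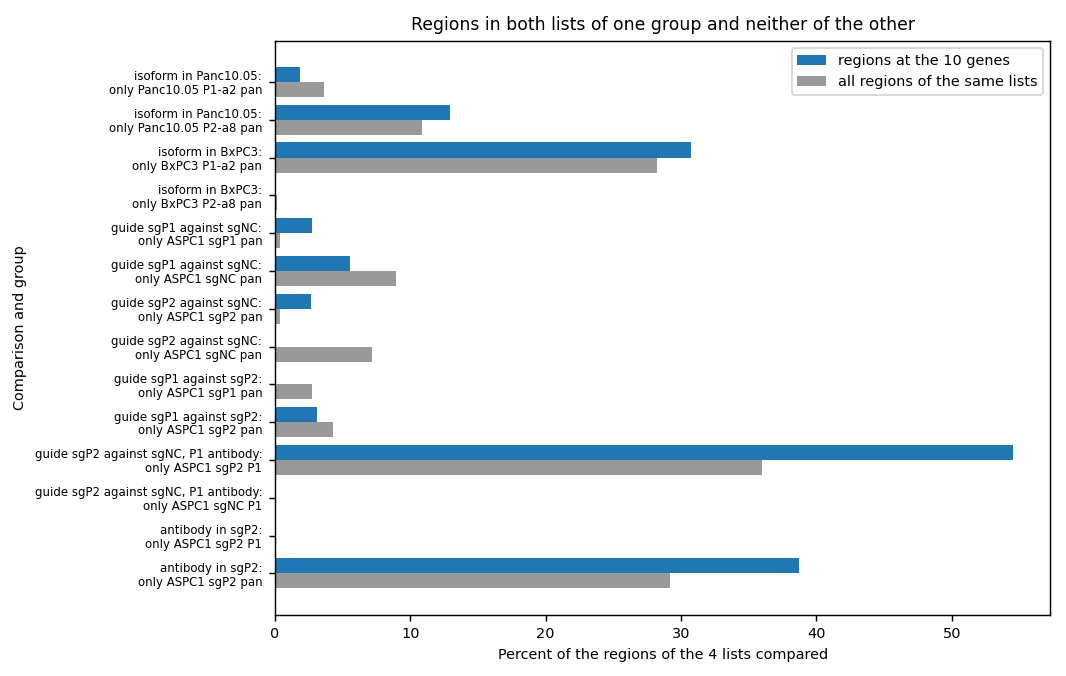
Share of regions found in both lists of a group and in neither list of the group it was compared with, in percent, for regions at the 10 genes (blue) and for all regions of the same 4 lists (grey). The pairs of bars lie close together, such as 30.8% and 28.2% for BxPC3 P1-α2; the widest gap, 54.5% against 36% for the P1 antibody in sgP2, rests on 6 of 11 regions.

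Strength at shared sites was set beside that of all regions. Of the 23 regions at the 10 genes found in all 4 Panc10.05 lists, 11 had a higher fold in both P1-α2 lists than in both P2-α8 lists (47.8%, against 36.7% of all regions found in all 4). These were ABCC2 sites 6, 7 and 8, ABCC3 sites 7, 13 and 14, ABCB11 sites 7 and 10, SLC51B sites 3 and 7, and SLC51A site 6. The reverse held for 2, NR0B2 site 5 and NR1H4 site 2 (8.70%, against 11.2%). By percentile within the list the counts were 8 and 4 (against 19.9% and 27.1%). In BxPC3, 8 of 9 shared regions had a higher fold in both P1-α2 lists (88.9%, against 67.2%) and 0 in both P2-α8 lists (against 0.856%). They included ABCC2 sites 7 and 8, ABCB11 site 7 and SLC51B site 7, which had the same order in Panc10.05. By percentile the BxPC3 counts were 6 and 1, SLC51A site 6 (against 46.2% and 3.97%). By that measure ABCC2 site 8 no longer had the order in Panc10.05, nor SLC51B site 7 in BxPC3, while ABCC2 site 7 and ABCB11 site 7 had it in both lines. Without Panc10.05 P1-α2 replicate 1 the 11 became 17 and the 2 became 6, and without replicate 2 the 2 became 9. Without Panc10.05 P2-α8 replicate 2 the 2 became 4, and without BxPC3 P2-α8 replicate 1 the 8 became 14.

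The second comparison asked whether repressing P1 or P2 in ASPC1 changed occupancy at these loci, measured with the pan antibody. Lists held 28.5 ± 6.36 peaks at the 10 genes in sgNC, 24.0 ± 1.41 in sgP1 and 27.0 ± 2.83 in sgP2 (SD, n = 2 each). The difference of sgP1 from sgNC was −4.5 (exact permutation p = 0.667, adjusted p = 0.741), that of sgP2 from sgNC −1.5 (exact permutation p = 1.0), and that of sgP1 from sgP2 −3.0 (exact permutation p = 0.667). These differences were smaller than the gap between the sgNC replicates, which held 33 and 24. At equal length the first became 1.5 and the second 3.0. Without sgNC replicate 1 the sgP1 difference was 0 and the sgP2 difference 3.0. Without sgP2 replicate 1 the latter was 0.5.

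The same 8 genes had a peak in both lists of each ASPC1 pan group, all but CYP7A1 and SLC10A2. The share of all genes was 58.5% in sgNC, 50.6% in sgP1 and 52% in sgP2. No gene of the 10 had a peak in both lists of one guide and in neither of another. Of all genes, 0.17% did so for sgP1 and 3.59% for sgNC between those guides, 0.13% for sgP2 and 2.8% for sgNC, and 0.943% for sgP1 and 1.68% for sgP2. Over all 14 pan lists, NR0B2, SLC51A, SLC51B, ABCB11, ABCC2 and ABCC3 had a peak in each, 6 of the 10 genes against 29.6% of all genes. Sites specific to a guide were few. ABCC2 site 3 (99775885 to 99776240), 6.62 kb before ABCC2, was in both sgP1 lists at fold 5.77 and 7.32 and both sgP2 lists at 6.51 and 3.66, and in no sgNC or induced list. It was 1 region of 36 specific to sgP1 (2.78%, against 0.409%) and 1 of 37 specific to sgP2 (2.70%, against 0.407%), both set against the same sgNC lists. With a −log10 q-value of at least 8 in every list it was no longer specific to sgP2.

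SLC51B site 9 (65088634 to 65089225) and ABCB11 site 9 (169038386 to 169038768) were specific to sgNC against sgP1, 2 of 36 regions (5.56%, against 8.97%). ABCB11 site 9 lay 7.3 kb beyond the high end of the span, the end where ABCB11 starts. It was also in both sgP2 lists, and it was the 1 region of 32 specific to sgP2 against sgP1 (3.13%, against 4.32%). Its fold was 9.72 and 3.91 in sgNC and 6.58 and 5.83 in sgP2. No region was specific to sgNC against sgP2 (against 7.2%) or to sgP1 against sgP2 (against 2.75%). Found in all 4 lists were 18 regions for sgP1 and sgNC (50%, against 32%), 20 for sgP2 and sgNC (54.1%, against 34%), and 18 for sgP1 and sgP2 (56.3%, against 38%). The counts of specific sites rested on single libraries: without sgNC replicate 2 the 2 sites became 8, without sgP1 replicate 1 they became 5, and sites specific to sgNC against sgP2 rose from 0 to 5 without sgNC replicate 2. Without sgP1 replicate 1 or sgP2 replicate 1 the 1 site specific to sgP2 against sgP1 became 4, and without sgNC replicate 1 those specific to sgP1 and to sgP2 against sgNC became 3 each.

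At sites shared by the ASPC1 lists the control guide had the higher fold more often than the targeting guides, as over all regions. Of 18 regions found in all sgP1 and sgNC lists, 8 were higher in both sgNC lists (44.4%, against 37.4% of all such regions) and 1, SLC51A site 6, in both sgP1 lists (5.56%, against 4.09%). Of 20 found in all sgP2 and sgNC lists, 9 were higher in both sgNC lists (45.0%, against 30.5%) and 1, ABCC3 site 5, in both sgP2 lists (5.00%, against 5.12%). Of 16 found in all 6 lists, 5 had both sgNC values above all 4 others (31.3%, against 19.2%) and 0 the reverse (against 1.02%). These 5 were NR0B2 site 10, SLC51B site 3, ABCC3 sites 4 and 14, and ABCB11 site 1. Between the targeting guides, of 18 shared regions, ABCC3 site 7 and ABCB11 site 5 were higher in both sgP1 lists (11.1%, against 14.2%), and SLC51B site 3 and ABCC3 sites 4 and 5 in both sgP2 lists (16.7%, against 25.1%). By percentile the counts were 4 and 3 (against 16.9% and 21.9%), with ABCC3 site 11 and SLC51A site 6 added for sgP1, so the order of the guides turned. Without sgNC replicate 2 the sites higher in sgNC became 15 against sgP1 and 17 against sgP2, and without sgNC replicate 1 those higher in sgP2 rose from 1 to 8. Leaving out either sgNC list, or sgP1 replicate 2, gave 3 sites higher in sgP1. Without sgP2 replicate 1 there were 3 higher in sgP2 than in sgNC, and without its replicate 2 there were 2. Between the targeting guides, leaving out each library in turn gave 4 or 5 sites higher in sgP1 and 7 to 9 higher in sgP2.

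The third comparison set the P1 antibody in sgP2 cells against the same antibody in sgNC cells. The sgP2 lists held 8.5 ± 3.54 peaks at the 10 genes and the sgNC lists 0 in each (SD, n = 2; difference 8.5, exact permutation p = 0.333, the smallest possible, adjusted p = 0.490). The sgP2 lists were much longer, with 5200 and 3916 peaks against 697 and 260. Cut to the shortest list, all 4 lists held 0 peaks at these genes. At that list length a difference between sgP2 and sgNC at these genes was not detectable.

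SLC51A, SLC51B, ABCC2 and ABCC3 had a P1-antibody peak in both sgP2 lists and in neither sgNC list, 4 of 10 genes against 17.1% of all genes. For both sgP2 lists alone, the share of all genes was 23.7%, and for sgNC 2.31%. The 6 specific regions, of 11 (54.5%, against 36%), were ABCC2 site 5, SLC51B sites 3 and 6, ABCC3 sites 5 and 14, and SLC51A site 6. All 6 were also in every ASPC1 pan list, and the same share of all P1-antibody regions is not given here. Between the antibodies in sgP2, 0.0562% of all regions were specific to the P1 antibody, so P1-antibody regions without a pan peak were rare everywhere. No region at the 10 genes was specific to sgNC (against 0.0638%) or in all 4 P1-antibody lists (against 3.04%). Without P1-antibody sgP2 replicate 2 the 6 regions became 11, and with −log10 q of at least 20 they became 1. The other 5 of the 11 sites, in replicate 1 only, were NR0B2 site 10, ABCB11 site 7, ABCC3 sites 4 and 11, and FGF19 site 6.

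The fourth comparison set the antibodies against each other in sgP2 cells. The P1 antibody gave 8.5 ± 3.54 peaks at the 10 genes and the pan antibody 27.0 ± 2.83 (SD, n = 2 each), a difference of −18.5 with an exact permutation p of 0.333 (smallest possible, adjusted p = 0.490). At equal list length the difference was 0.5. Of 31 regions, 0 were specific to the P1 antibody (against 0.0562%), 12 to the pan antibody (38.7%, against 29.2%) and 6 were in all 4 lists (19.4%, against 16%). The 12 held 4 sites each of ABCC3 (sites 7, 9, 15 and 16) and ABCB11 (sites 1, 5, 9 and 10), 2 of ABCC2 (sites 3 and 4), NR0B2 site 5 and NR1H4 site 3. At equal length they fell to 0. Of the 6 shared regions, 5 had a higher fold in both pan lists (83.3%, against 87.1%), all but SLC51B site 6, and 0 the reverse (against 0.421%). Without P1-antibody replicate 2 these 5 became 10. NR1H4 was the 1 gene with a peak in both pan lists and in neither P1-antibody list, against 17.6% of all genes, and 0 of the 10 showed the reverse (against 0.02%).

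Binding near 30 other genes of bile acid metabolism, in 3 lists by function, was counted in the same way. Of them, 13 of 30 had a peak within 50 kb in both lists of all 7 pan groups, where 29.6% of all protein-coding genes did. Among 10 genes of synthesis and conjugation these were CYP8B1 (sterol 12α-hydroxylase), HSD3B7, AKR1C4, AMACR, ACOX2 and the conjugating enzyme BAAT. Among 11 other transporters and binding proteins they were ABCG2 and the phospholipid flippase ATP8B1. Among 9 signalling genes they were GPBAR1, the membrane bile acid receptor TGR5, the nuclear receptors NR1I2 (PXR), VDR and PPARA, and RXRA, the partner of FXR. None of the 30 lacked a peak in every list. By group, 28 of the 30 had a peak in both lists of Panc10.05 P1-α2 (74.5% of all genes did) and 26 of P2-α8 (79.5%). In BxPC3 these were 28 with P1-α2 (76.6%) and 17 with P2-α8 (45.4%). In ASPC1 they were 21 in sgNC (58.5%), 17 in sgP1 (50.6%) and 19 in sgP2 (52%). The P1 antibody gave 7 in sgP2 (23.7%) and 1, PPARA, in sgNC (2.31%).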

How the data were processed

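HNF4α ChIP-seq peak lists of 18 of 32 libraries were analysed, and the 14 input libraries were not used here. The submitters' processing notes name Bowtie2 2.2.9, MACS2 2.2.7 and the builds hg38 and mm10, without roles, and the lists of these human cells were read as hg38. Each deposited narrowPeak list comes from 1 library, so peaks were called per library. Its columns, as deposited, are a score, the fold enrichment as a ratio, −log10 p-value and −log10 q-value, and the summit position as another number. Read depth is not given in the sources used here, so the depth behind each value is unknown, and list length can move with it.

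Summits within 50 kb of a gene's RefSeq span were counted. Peaks of different lists were merged when they overlapped by at least 1 bp. Mean counts per list were compared by two-sided exact permutation tests over libraries, and p-values were adjusted over the 10 comparisons by the Benjamini-Hochberg method. Regions specific to a group, genes with a peak and the order of fold at shared sites were counted beside all regions or genes, with no test. The rule for naming sites took, for each gene, the 2 found in the most lists and every group-specific site. Some of these, such as ABCC2 site 7 and ABCB11 site 10, are named without their values list by list. Other named sites, such as NR1H4 site 2, SLC51A site 5, SLC51B site 7 and ABCC3 sites 4 and 12, were chosen after their values were seen. The genes and gene lists were chosen with earlier results of these data known. The comparison between cell lines by region, the order of fold and the CAAAG core were added after the data were seen.

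The replicate numbers come from titles. Libraries of the same number did not deviate together in presence of peaks (correlations −0.0674 to 0.0680 over the pairs of groups), so numbers were not taken as pairs. Alternatives were −log10 q of at least 8 or 20, equal list length by fold, 10 kb, the nearest gene only, reciprocal overlap of 50%, summits within 100 bp, each replicate left out and a replicate block. Equal length meant the shortest list of the comparison, so the length kept differed between comparisons. The merging code, tested on simulated data for the Panc10.05 comparison from a list of 39111 peaks, recovered 200 of 200 planted regions and differed from bedtools 2.31.1 in 0 of 20200. Python 3.11.15, numpy 2.4.6 and pandas 2.3.3 were used.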

Additional observations from a re-analysis of the deposited data

Results flagged for a closer look

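The isoform difference in the number of peaks at the 10 genes had opposite signs in the induced lines. In Panc10.05 both P2-α8 lists, with 50 and 37 peaks, held more than both P1-α2 lists, with 29 and 35. In BxPC3 both P1-α2 lists, with 46 and 39, held more than both P2-α8 lists, with 11 and 15. The difference between the lines was −41.0 (exact permutation p = 0.0556, the lowest that this design can give, adjusted p = 0.490). List lengths had the same order, except that the lists of 33646 and 34146 peaks were nearly equal: 39111 and 33646 peaks for Panc10.05 P2-α8 against 24828 and 34146 for P1-α2, and 12681 and 14666 for BxPC3 P2-α8 against 41808 and 33737 for P1-α2. With all 8 lists cut to the shortest, 12681 peaks, the difference was 2.5. The doxycycline dose also differed between the isoforms in Panc10.05 and not in BxPC3, and its part in the result was not tested.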

How the results depend on the processing

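Of 112 repeats of the comparisons of mean peak counts, 9 changed sign, 100 kept it and 3 came to 0. The 3 were BxPC3 isoforms and the P1 antibody at equal length, and sgP1 against sgNC without sgNC replicate 1. The difference of sgP2 from sgNC changed sign with −log10 q of at least 8 (1.0), equal length (3.0), 10 kb (0.5) and the nearest gene only (1.0), and leaving out each replicate moved it from −6.0 to 3.0. Equal length also changed the sign for sgP1 against sgNC (1.5), the isoform difference between lines (2.5) and the antibodies (0.5). No comparison passed an adjusted p of 0.05 in any setting, and 2 against 2 libraries cannot. With the replicate block no difference changed, its p was 0.5 to 1.0 for 2 against 2 libraries and 0.125 for the isoform difference between lines, and it changed no call.

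Counts of group-specific sites moved by over 1.5 times in 61 of 154 repeats, and those of shared sites with higher fold in 25 of 60. For group-specific sites of Panc10.05 P1-α2 (1 site) the counts were 2 with −log10 q of at least 20, 0 within 10 kb, 0 by nearest gene, 2 by reciprocal overlap, 2.5 by summits within 100 bp, and 1 to 4 with a replicate left out. For P2-α8 (7) they were 4 at equal length, 3 within 10 kb, 3 by nearest gene and 7 to 17 with a replicate left out. For BxPC3 P1-α2 (16) they were 1, 8 and 9 under those settings and 18 to 30 with a replicate left out, and for P2-α8 (0) they were 1 at equal length and 1 by reciprocal overlap. For sgP1 against sgNC (1) they were 0 with −log10 q of at least 20, 3 at equal length, 2 by reciprocal overlap, 2 by summits and 1 to 3 with a replicate left out. For sgNC against sgP1 (2) they were 0 with −log10 q of at least 8, 1 at equal length, 1 within 10 kb, 1 by nearest gene and 2 to 8 with a replicate left out. For sgP2 against sgNC (1) they were 0 with −log10 q of at least 8 and 20, 2 at equal length, 2 by summits and 1 to 3 with a replicate left out. For sgNC against sgP2 (0) they were 2 with −log10 q of at least 20, 1 at equal length, 1 by summits and 1 to 5 with a replicate left out. For sgP1 against sgP2 (0) they were 1 by summits and 0 to 2 with a replicate left out, and for sgP2 against sgP1 (1) 2 with −log10 q of at least 20, 2 by summits and 2 to 4 with a replicate left out. With the P1 antibody in sgP2 (6) they were 1 with −log10 q of at least 20, 0 at equal length, 3 by nearest gene and 6 to 11 with a replicate left out. Between antibodies, the P1 antibody (0) had 1.5 by reciprocal overlap, and the pan antibody (12) had 4 with −log10 q of at least 20, 0 at equal length and 12 to 18 with a replicate left out.

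Genes with a peak in both lists were 6 for BxPC3 P1-α2 within 10 kb, 3 for BxPC3 P2-α8 by nearest gene, and 4 each for sgNC, sgP1 and sgP2 by nearest gene. They were 5 for sgP2 and 1 for the P1 antibody in sgP2 with −log10 q of at least 20. The latter were 2 by nearest gene and 4 to 7 with a replicate left out. Read depth, which limits all of these counts, is unknown.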
